A study of Mus musculus with 18 samples.

Results

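Collagens and stromal matrix genes were followed across cultures of mouse bone marrow macrophages that had met silica or iron oxide nanoparticles, lipopolysaccharide (LPS), or both. The members were every gene whose symbol in the probe annotation has the form of a collagen chain (Col, a number, a and a number), together with 18 named genes of connective tissue. They came to 53 of the 12393 genes tested, 36 collagen chains and 17 of the named genes; Fbn1 was not analysed here. Each gene was read from 1 probe set, the one with the highest mean over the 18 arrays, and 27 members had more than 1. Membership was decided by name, from a list chosen with earlier results of these data known. Shares of members set beside those of all genes are therefore descriptions. The probe set that stands for a member was chosen by its mean signal.

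All groups were cells flushed from femurs of C57BL/6 mice aged 4 to 6 weeks and grown in medium with 10% serum and 20% medium conditioned by L929 cells, a mouse fibroblast line that secretes macrophage growth factor. Non-adherent cells were washed away every other day, and adherent cells were re-plated without the conditioned medium; nothing in the labels says that stromal cells were removed or that macrophages were sorted. There were 3 arrays in each of 6 groups. The CON group received medium alone, and the LPS group stood for 24 h in medium and then for 4 h in LPS at 10 ng/ml. The Silica group met 50 nm amorphous silica for 24 h and then medium for 4 h, and the SPIO group met 33 nm iron oxide in the same way. The Silica-LPS and SPIO-LPS groups met those particles for 24 h and then LPS for 4 h. The labels write the particle concentration as 25 mg/ml for both; the unit was not checked here. The labels call the arrays biological replicates without saying whether they are separate animals, and a p-value here covers no more than how these cultures varied.

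Collagens are proteins of several chains wound into a helix. Fibrillar collagens form the tensile fibres of connective tissue, network-forming collagens build basement membranes and sheets, and fibril-associated chains decorate fibres. Chains are hydroxylated and folded in the endoplasmic reticulum with dedicated enzymes and chaperones, secreted, and then crosslinked by lysyl oxidases; transforming growth factor beta (TGF-beta) is the best known inducer of this programme. In marrow the programme belongs mainly to mesenchymal stromal cells, which also make the retention chemokine Cxcl12, while macrophages are known for uptake and breakdown of matrix and for some matrix proteins of their own, such as fibronectin.

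RefSeq start regions (GRCm38.p6, 250 bases before to 50 after the start) were at hand for 35 of the 53 members.
5 of them are shown because the results below turn on them: the divergent basement membrane pair Col4a1 and Col4a2, the fibrillar chains Col5a3 and Col11a1, which stood higher after both particles, and the matricellular gene Ccn1.
Sequences run 5′ to 3′ on the gene's own strand. In the Col4a1 and Col4a2 lines the capitals mark the 78 bases that both windows hold, read from opposite strands. In the other lines they mark motif matches.
Col4a1, chr8:11312777-11313076, minus strand: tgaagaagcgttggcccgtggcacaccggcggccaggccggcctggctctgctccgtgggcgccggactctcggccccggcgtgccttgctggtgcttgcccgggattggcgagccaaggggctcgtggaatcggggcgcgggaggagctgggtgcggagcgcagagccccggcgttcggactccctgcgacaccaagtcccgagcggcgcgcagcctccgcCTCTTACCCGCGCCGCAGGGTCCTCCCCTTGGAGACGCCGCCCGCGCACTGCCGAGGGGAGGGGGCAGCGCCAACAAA
Col4a2, chr8:11312555-11312854, plus strand: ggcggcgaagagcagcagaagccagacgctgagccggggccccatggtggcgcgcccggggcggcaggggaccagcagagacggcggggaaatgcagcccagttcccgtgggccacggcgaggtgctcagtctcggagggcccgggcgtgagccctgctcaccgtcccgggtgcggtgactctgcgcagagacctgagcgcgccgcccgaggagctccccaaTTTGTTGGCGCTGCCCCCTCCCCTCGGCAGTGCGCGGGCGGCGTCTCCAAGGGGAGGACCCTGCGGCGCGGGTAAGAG
Col5a3, chr9:20815018-20815317, minus strand: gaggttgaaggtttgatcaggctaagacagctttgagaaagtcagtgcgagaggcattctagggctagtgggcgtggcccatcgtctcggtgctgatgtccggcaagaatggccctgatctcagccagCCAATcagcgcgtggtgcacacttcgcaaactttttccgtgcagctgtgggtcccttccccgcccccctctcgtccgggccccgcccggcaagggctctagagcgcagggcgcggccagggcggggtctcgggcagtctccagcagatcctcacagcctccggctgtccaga
Col11a1, chr3:114030290-114030589, plus strand: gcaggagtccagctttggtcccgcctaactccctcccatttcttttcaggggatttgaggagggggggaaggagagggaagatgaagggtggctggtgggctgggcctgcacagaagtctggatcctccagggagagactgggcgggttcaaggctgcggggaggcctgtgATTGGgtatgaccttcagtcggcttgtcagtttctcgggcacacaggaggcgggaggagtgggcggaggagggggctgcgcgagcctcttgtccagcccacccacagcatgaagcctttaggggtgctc
Ccn1, chr3:145649936-145650235, minus strand: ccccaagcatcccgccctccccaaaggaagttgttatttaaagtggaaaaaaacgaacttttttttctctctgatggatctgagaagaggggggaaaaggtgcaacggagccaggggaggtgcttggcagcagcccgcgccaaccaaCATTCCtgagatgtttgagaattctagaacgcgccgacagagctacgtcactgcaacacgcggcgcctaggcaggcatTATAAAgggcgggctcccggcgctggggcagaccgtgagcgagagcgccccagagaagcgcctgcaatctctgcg
The annotated starts of Col4a1 and Col4a2 lie 21 bases apart on opposite strands. Motifs were searched on both strands. CCAAT stood in 37.4% of 32851 RefSeq start regions and in 13 of the 35 members (37.1%). A member was counted if any of its windows held a motif, and the 35 members had 40 windows. Shares of members and of start regions are therefore not in like units, for this and the other motifs. Col5a3 has CCAAT 122 bases and Col11a1 79 bases before the start.
The Ccn1 window holds TATAAA 25 bases before the start, a match found in 13.6% of all windows and in 8 of 35 members.
It also holds GGAATG, the core read by TEAD factors of the Hippo pathway, on the opposite strand 103 bases before the start, a match in 14.7% of all windows and 7 of 35 members.
Of the other motifs, the AP-1 site TGANTCA stood in 7.81% of all windows and in 1 member (Col6a1), and a kappaB site in 4.51% and in 2 members (Col9a1 and Col9a2). The CArG box of smooth muscle genes stood in 1.63% and in no member window. It was read only as CCWWWWWWGG, where W is A or T, so CArG sites that depart from these letters were not counted.
No searched motif overlapped another in the windows shown. These matches describe letters and say nothing of binding.
No start region was read for Ccn2, Col12a1, Col14a1, Col1a1, Col22a1, Col26a1, Col2a1, Col4a3, Col5a2, Col9a3, Dcn, Fn1, Lox, Loxl1, Lum, Mgp, Pdgfrb or Tagln.

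Pairs of arrays within a group had correlations of 0.997 to 0.999 over probe sets, and array medians ran from 6.22 to 6.43 on the log2 scale, whose lowest signals were near 2 and highest near 14.5. All levels below are log2 signals as deposited and all differences are log2 differences, with ± SD (n = 3) for a level and ± standard error for a difference. A gene counts as changed at a Benjamini-Hochberg adjusted p below 0.05 from limma over all genes; signals of different genes are not compared. The macrophage markers Csf1r (13.92 ± 0.011 in CON), Lyz2 (14.45 ± 0.035), Cd68 (12.57 ± 0.028) and Adgre1 (12.22 ± 0.015) were high in every group, as the label of the cells has it. Of 12 fibroblast and mesenchymal markers outside the members, Prrx1 (9.24 ± 0.061) and Pdpn (9.0 ± 0.10) gave clear signals in CON. Thy1 (4.17 ± 0.093), Dpt (3.51 ± 0.081) and Tcf21 (3.09 ± 0.034) stood near the lower end of the scale. Levels of the remaining markers of this list are not given here, and the mean of all 12 per CON array was 5.75 to 5.82. Of 5 endothelial markers, Tek (3.04 ± 0.097), Emcn (3.26 ± 0.15) and Pecam1 (3.61 ± 0.064) were near that end too, and Cdh5 (4.34 ± 0.15) and Kdr (5.89 ± 0.075) stood higher. Of 5 marrow stroma markers, Adipoq (2.79 ± 0.081) was near the lower end, and Lepr (4.71 ± 0.058), Ebf3 (5.07 ± 0.016), Kitl (6.61 ± 0.17) and Grem1 (8.21 ± 0.025) were above it. The cartilage gene Acan stood at 3.72 ± 0.067. The members' levels are those of whole cultures, in which fewer cells of a type and less RNA per cell cannot be told apart, and which cells carried them was not tested.

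Among the members the spread of levels was wide. In CON, Ccn2, which encodes connective tissue growth factor, stood at 13.64 ± 0.050, Col1a2 at 13.55 ± 0.022 and the smooth muscle actin gene Acta2 at 13.44 ± 0.0070, all close to the highest signals, where arrays tend to understate changes. Sparc, a collagen-binding matricellular protein, stood at 12.87 ± 0.029, the actin-binding gene Tagln at 12.67 ± 0.053 and Fn1 at 12.60 ± 0.12. At the other end, 15 of the 53 members, all but Lum of them collagen chains, lay in the dimmest 33.3% of genes by mean signal (below 5.24). They were Col4a3, Col4a4, Col4a5, Col4a6, Col9a2, Col10a1, Col11a2, Col13a1, Col14a1, Col15a1, Col17a1, Col19a1, Col22a1, Col26a1 and Lum.

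LPS lowered 20 of the 53 members and raised 10. Over all genes 36.1% were lower and 22.2% higher, so the members' shares were close to the background; their median difference was -0.09, against -0.014 for all genes. Silica raised 8 members and lowered 3, against 2.45% and 1.57% of all genes. With another scaling between arrays (cyclic loess) these member counts were the same, while the balance over all genes turned from 304 higher and 194 lower to 253 and 268. Iron oxide lowered 25 and raised 3, against 14.2% and 19.6% of all genes. Its median member difference was -0.23, against -0.0066 for all genes.

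With LPS added, Silica-LPS against LPS gave 5 members higher and 6 lower (1.89% and 0.976% of all genes), and SPIO-LPS against LPS gave 4 higher and 24 lower (18.2% and 14.6%). Fitted on the arrays of the Silica-LPS and LPS groups alone, the first of these counts fell to 2 higher (Col5a3 and Col11a1) and 1 lower (Mgp). That of Silica against CON, fitted in the same way, fell to 4 higher and 2 lower, without Lox, Col1a1, Col5a1, Col5a2 and Cxcl12. SPIO and Silica share the CON arrays as their control, and SPIO-LPS and Silica-LPS share the LPS arrays, so the particles were also set against each other. SPIO against Silica gave 29 members lower and 1 higher (11.6% and 14.6% of all genes). SPIO-LPS against Silica-LPS gave 28 lower and 0 higher (12.9% and 12.2%), and by limma's unadjusted p below 0.05 the members higher were also 0.

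**Figure D1:**
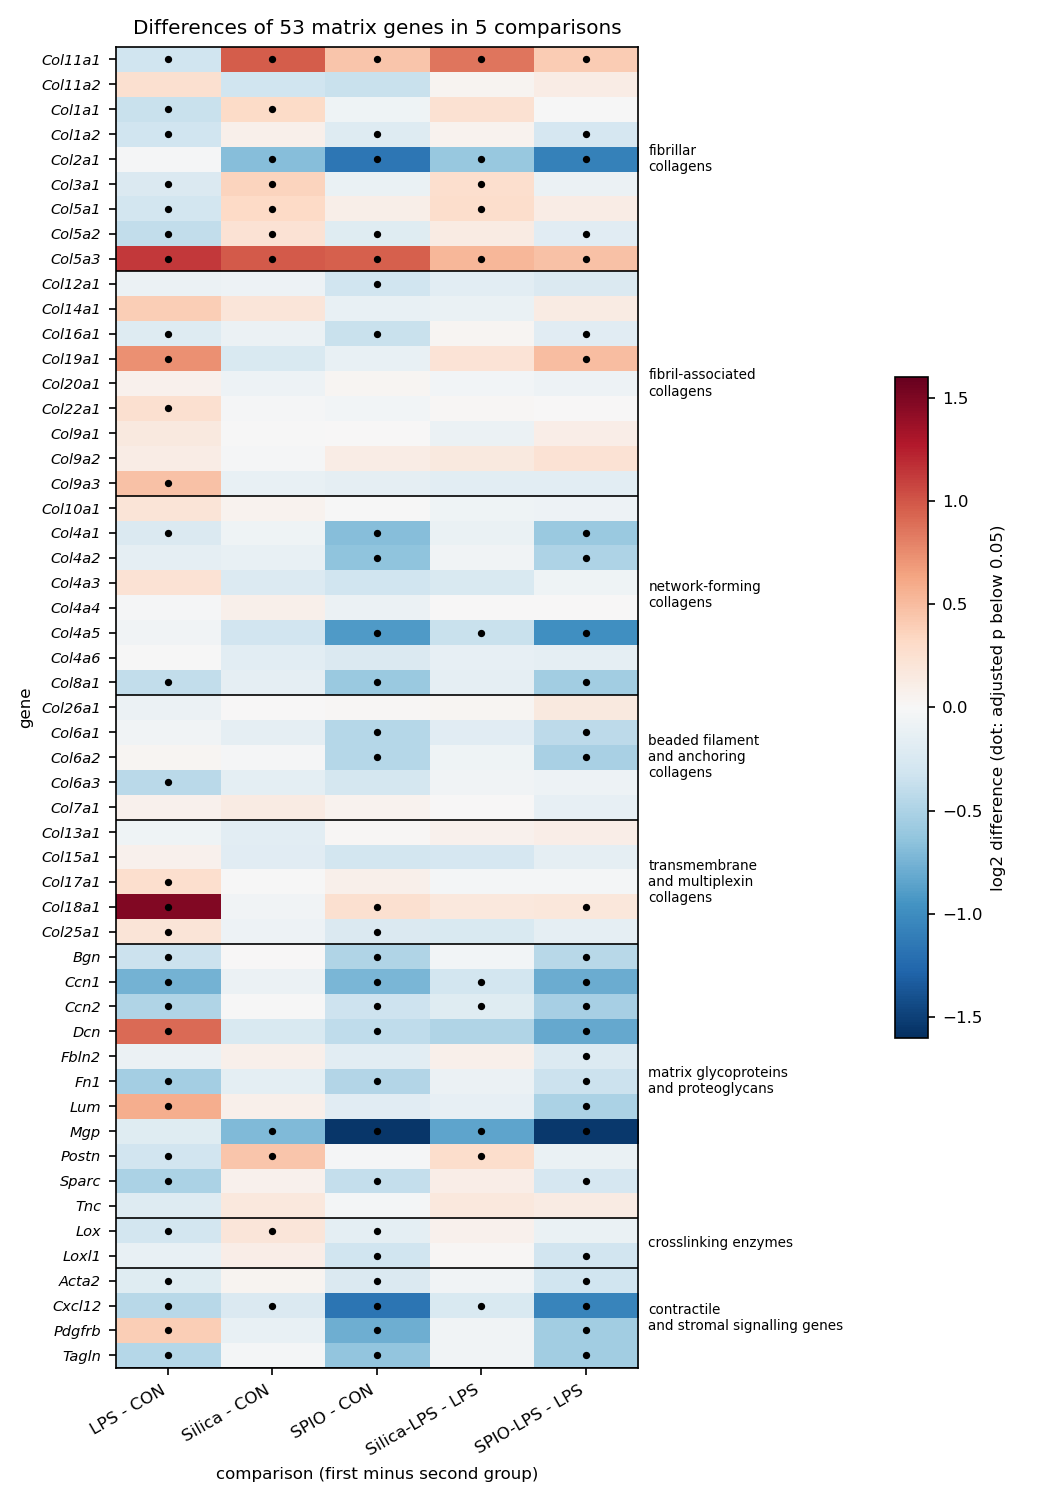
Log2 differences of the 53 members (rows, grouped by role) in 5 comparisons (columns, first group minus second); the colour scale runs from blue (lower) to red (higher), and a dot marks an adjusted p below 0.05. The Silica column is red for 6 of 9 fibrillar collagens with a dot and has few dots elsewhere, and the SPIO column is mostly blue, with Col5a3, Col11a1 and Col18a1 as its red dotted cells.

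Among fibrillar collagens, silica raised 6 of 9 and lowered 1, against 2.45% and 1.57% of all genes. In a fit on the compared groups alone, the rises of Col1a1, Col5a1 and Col5a2 were not called. Col5a3 and Col11a1, minor chains of types V and XI that set the width of fibres, moved the most. Col5a3 read 6.76, 6.54 and 6.76 in CON and 7.70, 7.71 and 7.61 in Silica, a rise of 0.99 ± 0.072 (1.98-fold, adjusted p = 7.9e-06, n = 3 per group). In SPIO it read 7.70, 7.52 and 7.70, a rise of 0.95 ± 0.072 (adjusted p = 5.92e-08). Every array with a particle lay above every CON array, and Silica and SPIO overlapped, with a difference of -0.03 (95% interval -0.19 to 0.12). LPS alone raised Col5a3 too, to 7.74, 7.83 and 7.90 (1.13 ± 0.072, 2.19-fold). With both stimuli it reached 8.40, 8.26 and 8.40 in Silica-LPS and 8.33, 8.22 and 8.33 in SPIO-LPS, which was 0.53 ± 0.072 and 0.47 ± 0.072 above LPS. These 6 arrays were the highest of all 18. Its other probe set, with a mean of 3.61 near the lower end, showed none of these changes (0.18 with LPS, 0.14 with silica, 0.01 with iron oxide), and in the mean of both probe sets the rises under LPS were no longer called.

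Col11a1 read 6.43, 6.40 and 6.35 in CON, 7.51, 7.35 and 7.24 in Silica and 6.74, 6.99 and 6.77 in SPIO. The 3 groups did not overlap: silica raised it by 0.97 ± 0.095 (1.97-fold, adjusted p = 0.000101), iron oxide by 0.44 ± 0.095 (adjusted p = 0.00187), and SPIO minus Silica was -0.53 ± 0.095. Unlike Col5a3, it was lower with LPS, at 6.22, 6.10 and 5.90 (-0.32 ± 0.095). Silica-LPS arrays (6.93, 6.87 and 6.99) and SPIO-LPS arrays (6.40, 6.38 and 6.65) again stood above LPS, by 0.86 ± 0.095 and 0.41 ± 0.095. The other Col11a1 probe set gave 0.74 after silica and 0.34 after iron oxide.

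The chains of the abundant fibrils moved less and in another pattern. Col3a1, of the type III collagen of soft tissue, read 11.57, 11.54 and 11.49 in CON and 11.94, 11.83 and 11.89 in Silica, a rise of 0.36 ± 0.050 (adjusted p = 0.000897). SPIO arrays stood at 11.48, 11.47 and 11.34 and were not called (-0.10 ± 0.050), and LPS arrays at 11.36, 11.28 and 11.27 (-0.23 ± 0.050). The Silica arrays were the highest for this gene, without overlap with any other group. Under LPS, Silica-LPS stood at 11.61, 11.53 and 11.59, 0.27 ± 0.050 above LPS, and SPIO-LPS at 11.19, 11.27 and 11.16. The fall with LPS was not called with cyclic loess scaling (-0.07) or by the other probe set (-0.03), while that probe set rose with silica (0.50).

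Col1a1 and Col1a2 encode the alpha chains of type I collagen. Col1a1 read 10.52, 10.64 and 10.41 in CON and 10.94, 10.77 and 10.76 in Silica (0.30 ± 0.064, adjusted p = 0.0153), and 10.49, 10.42 and 10.44 in SPIO (-0.07 ± 0.064, not called). The silica call was lost without CON array 3, without Silica array 1, and in a fit on the compared groups alone (adjusted p = 0.121). Col1a2 read 13.53, 13.57 and 13.54, 13.68, 13.60 and 13.62 and 13.35, 13.33 and 13.35 in the same groups, near the upper end of the scale. It was not called after silica (0.08 ± 0.048) and was lower after iron oxide (-0.21 ± 0.048, adjusted p = 0.00294). LPS lowered both, Col1a1 to 10.21, 10.21 and 10.09 (-0.35 ± 0.064) and Col1a2 to 13.16, 13.21 and 13.33 (-0.32 ± 0.048). With particles and LPS, Col1a1 read 10.46, 10.37 and 10.39 in Silica-LPS and 10.09, 10.22 and 10.16 in SPIO-LPS, and neither was called against LPS. Its Silica-LPS arrays lay above all LPS arrays (0.24). This difference was called by limma without CON array 2, CON array 3 or Silica array 1 (adjusted p = 0.0469, 0.0459 and 0.0395). Col1a2 read 13.31, 13.31 and 13.23 and 13.00, 12.98 and 12.91, the latter -0.27 ± 0.048 from LPS and called.

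The type V chains Col5a1 and Col5a2 rose with silica and fell with LPS as Col3a1 did. The silica calls of Col5a1 and Col5a2 were lost in a fit on the compared groups alone. Col5a1 went from 9.99, 9.96 and 10.11 in CON to 10.36, 10.30 and 10.34 in Silica (0.31 ± 0.046) and 9.67, 9.74 and 9.76 with LPS (-0.30 ± 0.046). In Silica-LPS, Col5a1 read 10.02, 10.00 and 10.00, above all LPS arrays (0.28 ± 0.046). After silica Col5a2 stood 0.23 ± 0.041 above CON, and the change with LPS was -0.39 ± 0.041. Iron oxide left Col5a1 uncalled (0.10 ± 0.046) and lowered Col5a2 (-0.19 ± 0.041). Col3a1 and Col5a2 are neighbouring genes, as are Col6a1 and Col6a2, Dcn and Lum, Col4a1 and Col4a2, and Col4a5 and Col4a6 on their own chromosomes.

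Col2a1, the fibrillar chain of cartilage, went the other way. It read 6.99, 7.17 and 7.03 in CON, 6.49, 6.28 and 6.39 in Silica and 6.05, 5.77 and 5.90 in SPIO, 3 groups without overlap. The changes were -0.68 ± 0.10 with silica (adjusted p = 0.00133) and -1.16 ± 0.10 with iron oxide (2.23-fold, adjusted p = 2.6e-07), and SPIO minus Silica was -0.48 ± 0.10. LPS arrays (7.01, 6.88 and 7.24) overlapped CON (-0.02 ± 0.10, not called), and the particle groups with LPS kept the order of those without, at 6.47, 6.41 and 6.43 and 6.15, 5.80 and 5.95. The cartilage gene Acan stayed near the lower end of the scale in all groups (means from 3.59 to 3.78). Sox9, the factor that drives Col2a1 in cartilage, was lower with silica (-0.25 ± 0.054) and with iron oxide (-0.30 ± 0.054). The ninth fibrillar chain, Col11a2 (means 3.89 to 4.62), was called in no comparison.

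**Figure D2:**
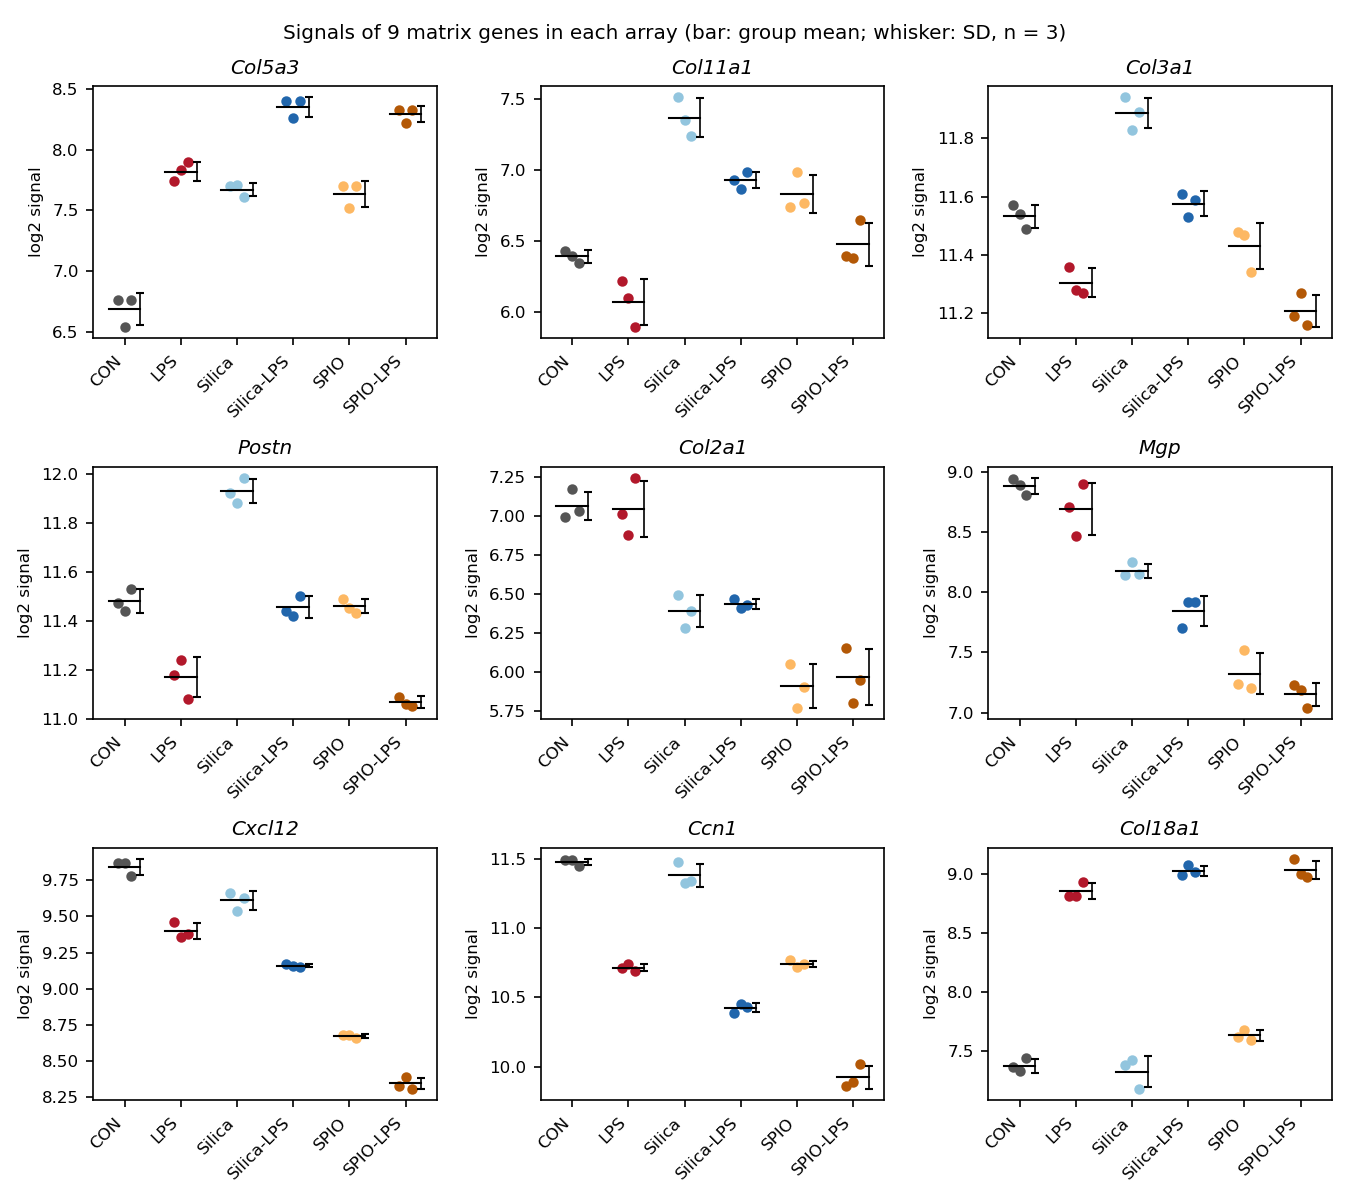
Log2 signal (vertical axis, scaled per gene) in each array of the 6 groups for 9 members; points are arrays, the bar is the group mean and the whisker its SD (n = 3). Col5a3 is lowest in CON (6.69) and highest in Silica-LPS (8.35), Col2a1, Mgp and Cxcl12 step down from CON over Silica to SPIO, and Col18a1 lies at means of 8.85 to 9.03 with LPS and 7.32 to 7.63 without.

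Iron oxide lowered 4 of 8 network-forming collagens, and under LPS 4, against 14.2% and 14.6% of all genes. In both comparisons 0 of these chains were higher by limma, also at an unadjusted p below 0.05 (0). Col4a1 and Col4a2, the basement membrane chains whose start regions are printed above, moved alike. Col4a1 read 9.96, 10.12 and 10.10 in CON and 9.42, 9.32 and 9.41 in SPIO (-0.68 ± 0.064, adjusted p = 7.63e-07). Col4a2 read 8.28, 8.35 and 8.46 and 7.70, 7.75 and 7.73 (-0.64 ± 0.064, adjusted p = 1.4e-06). For both, all SPIO arrays lay below all CON arrays, and the Silica arrays overlapped CON (-0.07 ± 0.064 and -0.11 ± 0.064). Col4a5, a chain of kidney basement membranes, was dimmer, at 5.45, 5.45 and 5.21 in CON and 4.31, 4.56 and 4.53 in SPIO (-0.90 ± 0.091), and its other probe set gave -0.25 without a call. Against LPS it read 4.97, 4.84 and 5.05 in Silica-LPS, from 5.38, 5.23 and 5.33 (-0.36 ± 0.091, adjusted p = 0.0464), a call lost without any single LPS or Silica-LPS array. The call was also lost without any one of CON arrays 1 and 2, Silica arrays 1 and 3, SPIO arrays 2 and 3 and SPIO-LPS array 2. Col4a5 read 4.20, 4.31 and 4.48 in SPIO-LPS (-0.98 ± 0.091), below all LPS arrays. Col8a1, of vessel walls, was lower with LPS (-0.40 ± 0.070) and with iron oxide (-0.59 ± 0.070), at a mean of 9.39 ± 0.13 in CON. Col4a3, Col4a4, Col4a6 and Col10a1 were called in no comparison.

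Col6a1 and Col6a2, chains of the beaded filaments around cells, were lower with iron oxide by equal steps (-0.46 ± 0.065 and -0.46 ± 0.053) and again under LPS (-0.42 ± 0.065 and -0.51 ± 0.053), while LPS itself left them uncalled (-0.05 ± 0.065 and 0.04 ± 0.053). Col6a3, the third chain of the same protein, was not called with iron oxide (-0.29 ± 0.12) and was lower with LPS (-0.43 ± 0.12), although a CON and an LPS array overlapped. The anchoring chain Col7a1 and Col26a1 were called in no comparison. Among the 9 fibril-associated collagens, Col9a1, Col9a2, Col14a1 and Col20a1 were called in no comparison. Iron oxide lowered Col12a1 (-0.32 ± 0.11) and Col16a1 (-0.35 ± 0.065), and LPS lowered Col16a1 (-0.21 ± 0.065). LPS raised 3 of the 9, against 22.2% of all genes. These chains were Col19a1, from 3.54, 3.34 and 3.55 in CON to 4.42, 4.18 and 4.01 (0.73 ± 0.15, adjusted p = 0.0004), Col9a3, from 5.87, 5.86 and 5.82 to 6.14, 6.58 and 6.25 (0.47 ± 0.11), and Col22a1 (0.25 ± 0.063). SPIO-LPS arrays for Col19a1 stood higher still, at 4.57, 4.74 and 4.77 (0.49 ± 0.15), a call lost without LPS array 3 or SPIO-LPS array 3. Its other probe set was not called with LPS (0.27) and had the opposite sign for SPIO-LPS against LPS (-0.17).

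Col18a1, which encodes the basement membrane collagen that releases endostatin, had the largest rise with LPS of any member. It read 7.36, 7.33 and 7.44 in CON and 8.81, 8.81 and 8.93 with LPS, 1.48 ± 0.063 apart (2.78-fold, adjusted p = 5.71e-12, n = 3 per group), and its other probe set gave 1.77. The brighter probe set, used here, carries the suffix s, which marks probes shared by several transcripts. Silica arrays (7.38, 7.42 and 7.18) overlapped CON, and SPIO arrays (7.62, 7.68 and 7.59) stood above both, 0.26 ± 0.063 from CON and 0.31 ± 0.063 from Silica; the other probe set did not show the SPIO rise (0.03). All arrays with LPS and a particle were higher than those with LPS alone (8.99, 9.07 and 9.01 in Silica-LPS and 9.12, 9.0 and 8.97 in SPIO-LPS). The difference was not called for silica (0.17 ± 0.063) and was called for iron oxide (0.18 ± 0.063), a call lost with the replicate number as a block (adjusted p = 0.0568) and with cyclic loess (adjusted p = 0.1). It was also lost without any one of CON array 1, LPS arrays 1 and 2, Silica-LPS array 3 and SPIO-LPS arrays 1 and 2. The transmembrane chains Col17a1 (0.26 ± 0.11) and Col25a1 (0.21 ± 0.082) rose with LPS at low signals, and Col25a1 was lower with iron oxide (-0.23 ± 0.082). Col13a1 and Col15a1 were called in no comparison.

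Of the matrix glycoproteins and proteoglycans, iron oxide lowered 7 of 11 and raised 0, and under LPS it lowered 9. Over all genes it lowered 14.2% and raised 19.6%, and under LPS it lowered 14.6%. Mgp, which encodes an inhibitor of tissue calcification, fell the most of all members with iron oxide. It read 8.94, 8.89 and 8.81 in CON, 8.14, 8.25 and 8.15 in Silica and 7.24, 7.52 and 7.20 in SPIO. The groups did not overlap, with changes of -0.70 ± 0.10 after silica (adjusted p = 0.00116) and -1.56 ± 0.10 after iron oxide (2.95-fold, adjusted p = 1.25e-08), and SPIO minus Silica at -0.86 ± 0.10. LPS arrays (8.71, 8.47 and 8.90) overlapped CON. Silica-LPS (7.70, 7.92 and 7.92) and SPIO-LPS (7.23, 7.19 and 7.04) lay -0.84 ± 0.10 and -1.54 ± 0.10 from LPS.

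Ccn1 and Ccn2 encode matricellular proteins that respond to stretch and growth factors. Ccn1 read 11.49, 11.49 and 11.45 in CON, 10.71, 10.74 and 10.69 in LPS and 10.77, 10.72 and 10.74 in SPIO, so that LPS (-0.76 ± 0.049, adjusted p = 8.97e-10) and iron oxide (-0.73 ± 0.049, adjusted p = 1.49e-08) lowered it to levels that overlapped; Silica arrays (11.48, 11.33 and 11.34) overlapped CON. SPIO-LPS arrays were the lowest, at 9.86, 9.89 and 10.02 (-0.79 ± 0.049 from LPS), and Silica-LPS lay between, at 10.39, 10.45 and 10.43 (-0.29 ± 0.049). Its probe set has the suffix x, which marks probes that may read related transcripts. Values of the other Ccn1 probe set are not given here. Ccn2 changed in the same directions by less. It read 13.66, 13.68 and 13.58 in CON and 13.15, 13.17 and 13.14 with LPS (-0.49 ± 0.037 from CON). In SPIO it read 13.33, 13.30 and 13.31 (-0.33 ± 0.037 from CON), and in SPIO-LPS 12.64, 12.65 and 12.59 (-0.53 ± 0.037 from LPS). Its Silica arrays (13.62, 13.67 and 13.63) overlapped CON, and its Silica-LPS arrays stood at 12.97, 12.97 and 12.94 (-0.19 ± 0.037 from LPS).

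Postn encodes a collagen-binding protein of wounds and bone surfaces. It read 11.47, 11.44 and 11.53 in CON, 11.92, 11.88 and 11.98 in Silica and 11.49, 11.45 and 11.43 in SPIO; the Silica arrays were higher (0.45 ± 0.048, adjusted p = 0.000168) and the SPIO arrays overlapped CON (-0.02 ± 0.048). LPS lowered it to 11.18, 11.24 and 11.08 (-0.31 ± 0.048). Silica-LPS arrays read 11.44, 11.42 and 11.50 (0.28 ± 0.048 from LPS) and SPIO-LPS arrays 11.09, 11.06 and 11.05 (-0.10 ± 0.048 from LPS, not called). Fn1, for fibronectin, the cell-binding protein that macrophages also make, read 12.46, 12.69 and 12.65 in CON, 12, 11.90 and 12.27 with LPS and 12.13, 12.16 and 12.11 in SPIO. It was lower with LPS (-0.55 ± 0.10) and iron oxide (-0.47 ± 0.10). Silica arrays (12.63, 12.41 and 12.28) overlapped CON (-0.16 ± 0.10, not called), whereas its dimmer probe set was lower with silica (-0.49, adjusted p = 0.0169). With LPS and a particle Fn1 read 12.08, 11.91 and 11.87 in Silica-LPS and 11.60, 11.82 and 11.71 in SPIO-LPS. The latter lay -0.35 ± 0.10 from LPS, a call lost without LPS array 3 or SPIO-LPS array 1.

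Sparc read 12.85, 12.90 and 12.85 in CON, 12.97, 12.91 and 12.93 in Silica, 12.52, 12.44 and 12.50 in SPIO and 12.29, 12.32 and 12.48 with LPS. Iron oxide (-0.38 ± 0.050) and LPS (-0.50 ± 0.050) lowered it and silica was not called (0.07 ± 0.050). The arrays with LPS read 12.48, 12.47 and 12.44 in Silica-LPS and 12.07, 12.06 and 12.16 in SPIO-LPS, the latter lower than LPS (-0.27 ± 0.050). The proteoglycan gene Bgn followed Sparc (-0.34 ± 0.042 with LPS, -0.48 ± 0.042 with iron oxide and 0.00 ± 0.042 with silica). Dcn and Lum, the other small proteoglycans among the members, were dim and rose with LPS. Dcn went from 5.45, 5.34 and 5.56 in CON to 6.22, 6.25 and 6.60 (0.91 ± 0.13, limma adjusted p = 1.85e-05). Lum went from 2.84, 2.94 and 2.92 to 3.37, 3.57 and 3.51 (0.58 ± 0.076). Iron oxide under LPS lowered both, Dcn to 5.47, 5.37 and 5.77 (-0.82 ± 0.13) and Lum to 2.86, 2.98 and 3.10 (-0.50 ± 0.076). Fbln2, an elastic fibre component, was lower in SPIO-LPS than in LPS (-0.22 ± 0.072). Tnc, for the wound protein tenascin C, was not called in any comparison; its means ran from 10.74 in LPS to 11.11 in Silica.

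The crosslinking enzyme gene Lox rose with silica, from 12.01, 12.02 and 12.03 in CON to 12.23, 12.20 and 12.24 (0.20 ± 0.041, adjusted p = 0.014), and fell with iron oxide, to 11.87, 11.85 and 11.89 (-0.15 ± 0.041), and with LPS (-0.30 ± 0.041). The silica call was lost in a fit on the compared groups alone. Loxl1 was lower with iron oxide (-0.31 ± 0.050 without and -0.31 ± 0.050 with LPS) and not called with silica (0.11 ± 0.050). All 4 contractile and signalling genes fell with iron oxide, with and without LPS, against 14.6% and 14.2% of all genes. Cxcl12, the chemokine by which marrow stroma holds blood cell precursors, fell the most of the 4. It read 9.87, 9.87 and 9.78 in CON, 9.66, 9.54 and 9.63 in Silica and 8.68, 8.68 and 8.66 in SPIO, groups without overlap, with changes of -0.23 ± 0.045 (adjusted p = 0.00986) and -1.17 ± 0.045 (2.25-fold, adjusted p = 8.22e-11). The silica fall was not called by the other probe set (-0.05), in the mean of both, or without CON array 2. LPS lowered Cxcl12 to 9.46, 9.36 and 9.38 (-0.44 ± 0.045), with 9.17, 9.16 and 9.15 in Silica-LPS and 8.33, 8.39 and 8.31 in SPIO-LPS (-0.24 ± 0.045 and -1.06 ± 0.045 from LPS).

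Tagln, for a protein of contractile actin bundles, read 12.62, 12.68 and 12.72 in CON, 12.19, 12.18 and 12.28 with LPS and 12.10, 11.97 and 12.06 in SPIO, changes of -0.45 ± 0.049 and -0.63 ± 0.049; in SPIO-LPS it read 11.67, 11.65 and 11.66 (-0.56 ± 0.049 from LPS). Silica-LPS arrays read 12.14, 12.22 and 12.12, near LPS and above all SPIO-LPS arrays. Acta2 changed less (-0.19 ± 0.036 with LPS, -0.24 ± 0.036 with iron oxide), close to the top of the scale. Its bright probe set carries the suffix s, which marks probes shared by several transcripts, and the actin genes are near copies, so its value is uncertain; the other probe set, at a mean of 4.22, was called in none of the 5 comparisons against CON or LPS. Pdgfrb, the growth factor receptor of pericytes and fibroblasts, was higher with LPS and lower with iron oxide. It read 9.33, 9.34 and 9.17 in CON, 9.70, 9.68 and 9.64 with LPS (0.39 ± 0.061) and 8.46, 8.55 and 8.49 in SPIO (-0.78 ± 0.061, adjusted p = 9e-08). Its Silica arrays (9.27, 9.08 and 9.13) stood above all SPIO arrays and were not called against CON (-0.12 ± 0.061). SPIO-LPS arrays read 9.08, 9.07 and 9.21, which was -0.55 ± 0.061 from LPS.

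Set directly against silica, iron oxide gave lower signals for 7 of 9 fibrillar collagens, 9 of 11 glycoproteins and proteoglycans, both crosslinking enzymes and all 4 contractile and signalling genes, both without LPS and, with 8 in place of 9 glycoproteins, under LPS. Over all genes 11.6% were lower without LPS and 12.9% under LPS. Of the members, Cxcl12 differed the most (-0.94 ± 0.045, adjusted p = 1.91e-09), then Mgp (-0.86 ± 0.10), Pdgfrb (-0.66 ± 0.061), Ccn1 (-0.64 ± 0.049) and Tagln (-0.60 ± 0.049). Col18a1 was the member called higher (0.31 ± 0.063), a call its other probe set did not give (adjusted p = 0.4). For Col3a1 (-0.46 ± 0.050), Col1a1 (-0.38 ± 0.064), Col5a1 (-0.21 ± 0.046) and Postn (-0.47 ± 0.048), silica had been called higher than CON and iron oxide had not been called. For Fn1 it was -0.31 ± 0.10, a call lost without Silica array 1 or 2 or any single SPIO array, and for Sparc it was -0.45 ± 0.050. For Col1a2 it was -0.29 ± 0.048. Under LPS the values were -0.81 ± 0.045 for Cxcl12, -0.70 ± 0.10 for Mgp, -0.62 ± 0.091 for Col4a5, -0.50 ± 0.049 for Tagln, -0.37 ± 0.050 for Col3a1 and -0.25 ± 0.064 for Col1a1. The particles differ in material and in size, and the labels give no inactive particle, so material cannot be told apart from size.

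**Figure D3:**
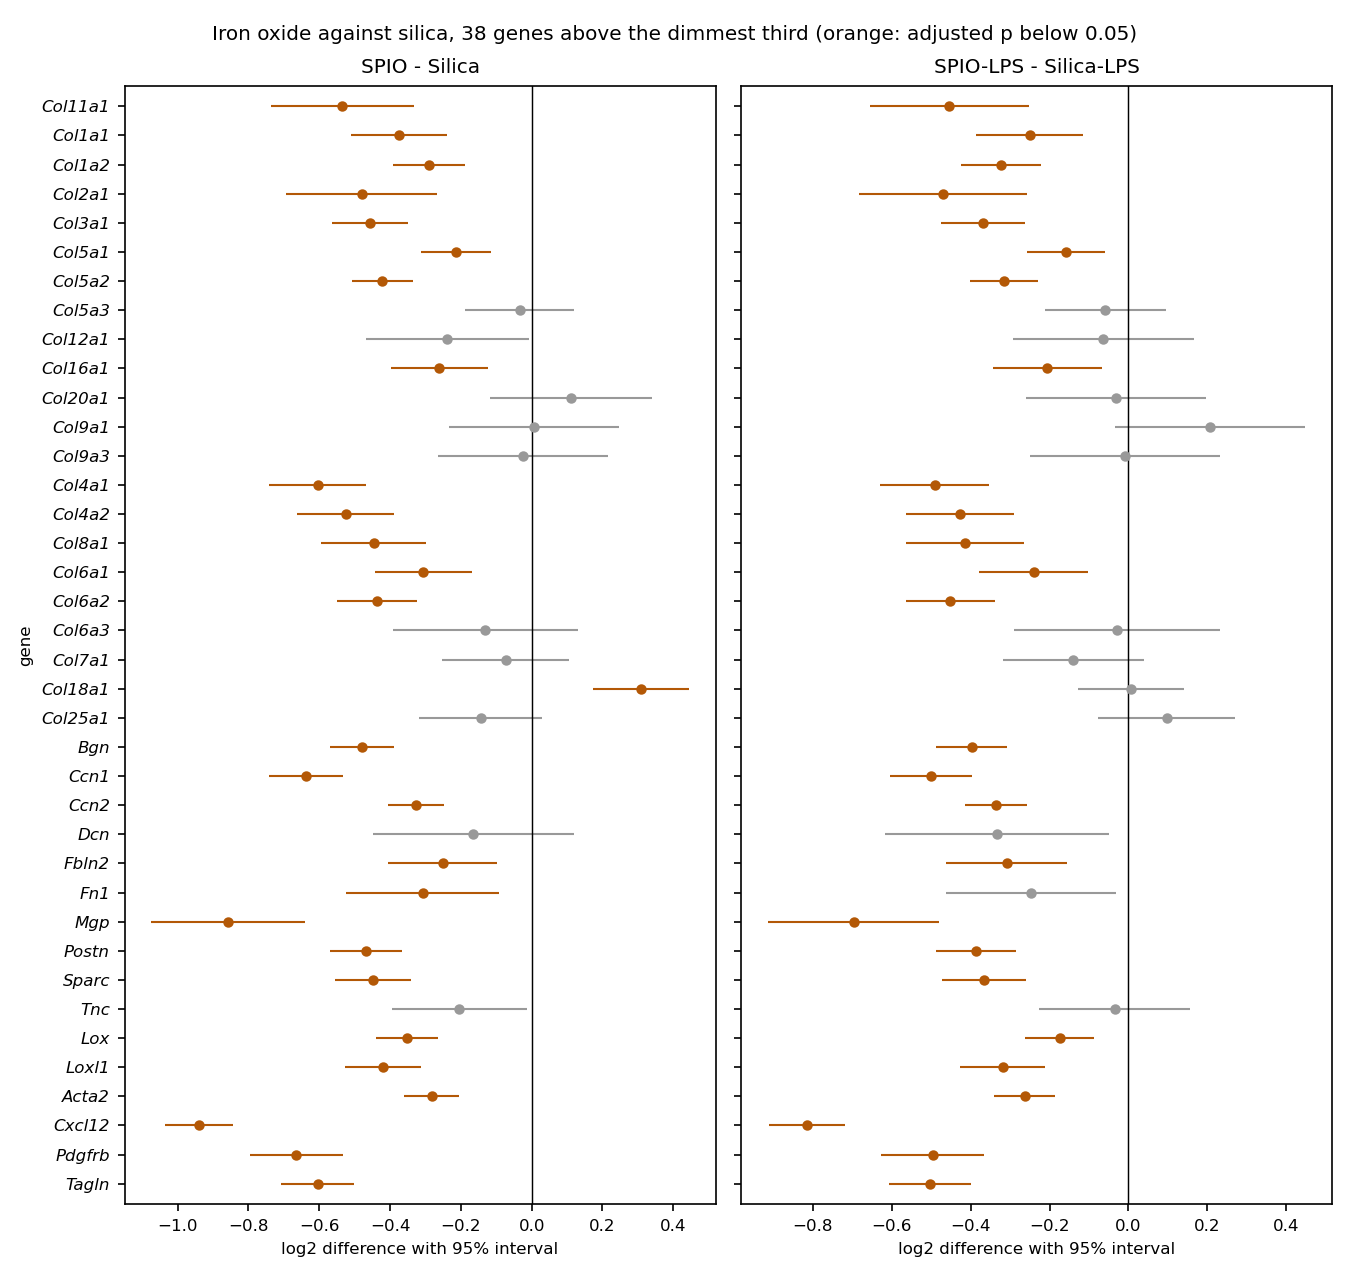
Log2 difference of SPIO from Silica (left) and of SPIO-LPS from Silica-LPS (right) for the 38 members above the dimmest 33.3% of genes, with 95% intervals from the model; orange marks an adjusted p below 0.05. Nearly all orange points lie left of 0, from -0.94 for Cxcl12 to -0.21 for Col5a1 in the left panel, with Col18a1 (0.31) to the right and Col5a3 at -0.03.

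Whether LPS changed the effect of a particle was tested by the interaction of both treatments. For silica 0 of 53 members were called in either direction by limma (at an unadjusted p below 0.05, 2 were higher and 5 lower), against 0.00807% of all genes each way (1 gene higher and 1 lower, and with cyclic loess 1 and 0). For iron oxide 2 were lower and 0 higher (5.07% and 3.73% of all genes; 4 and 3 at an unadjusted p below 0.05). The called genes were Col5a3, which iron oxide raised by 0.95 without and 0.47 with LPS (-0.48 ± 0.10, adjusted p = 0.00614), and Ccn2, which it changed by -0.33 without and -0.53 with LPS (-0.20 ± 0.053, adjusted p = 0.0274). For Col11a1, Col2a1, Mgp and Cxcl12 the interaction with iron oxide was -0.03 ± 0.13, 0.08 ± 0.14, 0.02 ± 0.14 and 0.11 ± 0.064, none of them called. The Ccn2 call was lost without any one of CON array 3, LPS array 2, SPIO arrays 1 and 3 and SPIO-LPS array 3, and that of Col5a3 in the mean of its probe sets. The interval for Mgp ran from -0.29 to 0.33 and that for Cxcl12 from -0.02 to 0.25.

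Other genes of collagen production were read from lists apart from the members. Of 20 measured genes for collagen processing, silica raised 3 and lowered 0 (at an unadjusted p below 0.05 the falls were 1): the prolyl hydroxylase gene P4ha2 (0.33 ± 0.059), the lysyl hydroxylase gene Plod2 (0.32 ± 0.077) and Pcolce2 (0.33 ± 0.065), an enhancer of procollagen cleavage. In a fit on the compared groups alone, 0 of the rises were called (limma). Over all genes silica raised 2.45% and lowered 1.57% in the fit to all arrays. Iron oxide lowered 7 and raised 3, against 14.2% and 19.6% of all genes. The lysyl oxidase relative Loxl3 (-0.67 ± 0.064), the cleavage enhancer Pcolce (-0.61 ± 0.065) and the collagen chaperone Serpinh1 (-0.52 ± 0.046) fell, and Tmem38b (0.81 ± 0.058), an ion channel gene of the endoplasmic reticulum, rose. LPS lowered 12 and raised 6, against 36.1% and 22.2% of all genes. Among the rises were P4ha1 (0.85 ± 0.049), a prolyl hydroxylase gene, and Plod3 (0.69 ± 0.050). Among the falls were Mia3 (-0.62 ± 0.058), which packs procollagen for export, and P4hb (-0.59 ± 0.041). Under LPS silica changed 0 by limma (5 higher and 0 lower at an unadjusted p below 0.05). Iron oxide under LPS lowered 9 and raised 4, against 14.6% and 18.2% of all genes.

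Of 22 measured TGF-beta signalling genes, iron oxide lowered 12 and raised 3, against 14.2% and 19.6% of all genes. The falls were led by Pmepa1 (-1.0 ± 0.055), a gene that TGF-beta induces, Ltbp1 (-0.68 ± 0.088), which tethers latent TGF-beta to matrix, Tgfbi (-0.60 ± 0.044) and the ligand gene Tgfb3 (-0.55 ± 0.072). Negative regulators of the pathway fell too: Smad7 (-0.53 ± 0.063), Skil (-0.27 ± 0.041), Smad6 (-0.24 ± 0.052) and Ski (-0.21 ± 0.044). The median of the list was -0.24, against -0.0066 for all genes. Tgfb1, the main ligand gene of macrophages, was higher (0.23 ± 0.071). LPS lowered 10 and raised 6, against 36.1% and 22.2% of all genes. The receptor genes Tgfbr1 (-1.73 ± 0.045) and Tgfbr2 (-1.42 ± 0.040) and the repressor Ski (-2.04 ± 0.044) were among the falls. After silica 2 fell and 2 rose (1.57% and 2.45% of all genes), Eng (-0.24 ± 0.057) and Pmepa1 (-0.23 ± 0.055) against Ltbp2 (0.31 ± 0.060) and Ltbp3 (0.24 ± 0.043). Of 32 other matrix genes iron oxide lowered 16 and raised 0 (1 at an unadjusted p below 0.05), against 14.2% and 19.6% of all genes. The basement membrane linkers Nid1 (-0.96 ± 0.076) and Nid2 (-0.94 ± 0.11) and the small proteoglycan Ogn (-0.96 ± 0.065) fell beside Col4a1 and Col4a2. Silica raised Thbs2 (0.40 ± 0.047) and Fmod (0.36 ± 0.078) and lowered Efemp1 (-0.55 ± 0.12), Nid2 (-0.41 ± 0.11) and Hspg2 (-0.40 ± 0.10), the 2 rises and 3 falls in the list. Over all genes silica raised 2.45% and lowered 1.57%. With LPS 10 of the 32 fell and 7 rose, against 36.1% and 22.2% of all genes. The proteoglycan genes Vcan (1.97 ± 0.11) and Agrn (1.48 ± 0.050) led the rises, the former above that of any member, and Thbs1 (-0.71 ± 0.050) and Emilin1 (-0.52 ± 0.052) led the falls. Under LPS, iron oxide lowered 13 TGF-beta genes and 10 other matrix genes and raised 4 and 4, and silica lowered 0 and 2 and raised 3 and 3. Over all genes iron oxide under LPS lowered 14.6% and raised 18.2%, and silica 0.976% and 1.89%.

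Markers of stromal cells that were not members moved as follows. With iron oxide 4 of 12 fibroblast markers were lower, Prrx1 (-0.55 ± 0.059), Pdgfra (-0.51 ± 0.064), Ddr2 (-0.46 ± 0.073) and Fap (-0.43 ± 0.077), and 1 was higher, Pdpn (0.94 ± 0.063). Over all genes iron oxide lowered 14.2% and raised 19.6%. The fibroblast list's mean signal per array was 5.75 to 5.82 in CON and 5.65 to 5.69 in SPIO. Grem1, a marrow stroma marker, was lower as well (-0.66 ± 0.065). With silica 0 of the 12 were called by limma (2 higher and 0 lower at an unadjusted p below 0.05), and the list's mean was 5.82 to 5.86. With LPS 4 were higher and 0 lower (0 at an unadjusted p below 0.05), among them Pdpn (2.22 ± 0.063) and Pdgfra (0.66 ± 0.064), while 20 members fell. Over all genes LPS raised 22.2% and lowered 36.1%. The fibroblast list's mean in LPS arrays was 6.11 to 6.16. These means include Pdpn, whose change was the largest in the list with LPS and with iron oxide. Under LPS iron oxide lowered 6 of these markers and raised 1, against 14.6% and 18.2% of all genes. Silica under LPS raised Pdpn (0.36 ± 0.063) and lowered Ddr2 (-0.31 ± 0.073). For the smaller lists, of 5 genes each, every gene called with LPS or silica is named here. LPS raised the endothelial genes Kdr (1.18 ± 0.094) and Cdh5 (0.57 ± 0.094), the stroma marker Lepr (0.33 ± 0.094) and the bone matrix gene Ibsp (0.32 ± 0.098). It lowered Kitl (-1.09 ± 0.12), the mural gene Cnn1 (-0.41 ± 0.065) and the osteoblast factor Sp7 (-0.23 ± 0.077). The shares of all genes with LPS were 22.2% higher and 36.1% lower. Silica lowered Kdr (-0.40 ± 0.094) and Sox9, against 1.57% of all genes. Under LPS silica lowered Grem1 (-0.28 ± 0.065), against 0.976% of all genes. With iron oxide alone, 1 of 5 marrow stroma, 2 of 5 endothelial, 2 of 5 skeletal and 1 of 5 mural markers fell, and 1 skeletal marker rose. The shares of all genes were 14.2% lower and 19.6% higher. The part of a change in stromal cells in these results was not tested.

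Macrophage markers moved with LPS and with iron oxide. Of 8, LPS lowered 5 and raised 2, against 36.1% and 22.2% of all genes. The changes were -2.62 for Mertk, -0.50 for Cd68, -0.33 for Itgam, -0.23 for Csf1r and -0.12 for Lyz2, against 2.03 for Fcgr1 and 1.56 for Cd14 (SE 0.032 to 0.096), and the list's mean per array was 11.82 to 11.88. With iron oxide 5 were lower and 2 higher, against 14.2% and 19.6% of all genes. Fcgr1 (-0.85 ± 0.060), Cd14 (-0.80 ± 0.040) and Itgam (-0.55 ± 0.096) were among the falls. Mertk (0.43 ± 0.074) and Cd68 (0.33 ± 0.039) were the rises. The list's mean per array was 11.84 to 11.88 in CON and 11.60 to 11.65 in SPIO. Silica changed none of the 8 by limma (0 higher and 1 lower at an unadjusted p below 0.05), with a mean of 11.80 to 11.85. As a sign of RNA quality, the 3′ minus 5′ signal of the Gapdh control probe sets was 0.69 ± 0.039 in CON, 0.52 ± 0.050 in LPS, 0.56 ± 0.020 in Silica, 0.47 ± 0.026 in SPIO, 0.43 ± 0.045 in Silica-LPS and 0.40 ± 0.064 in SPIO-LPS (SD, n = 3). That of Actb was 0.59 ± 0.017, 0.38 ± 0.053, 0.62 ± 0.018, 0.66 ± 0.015, 0.44 ± 0.026 and 0.52 ± 0.014 in the same order, lowest in LPS. The part of macrophage changes and RNA quality in the members' changes was not tested.

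**Figure D4:**
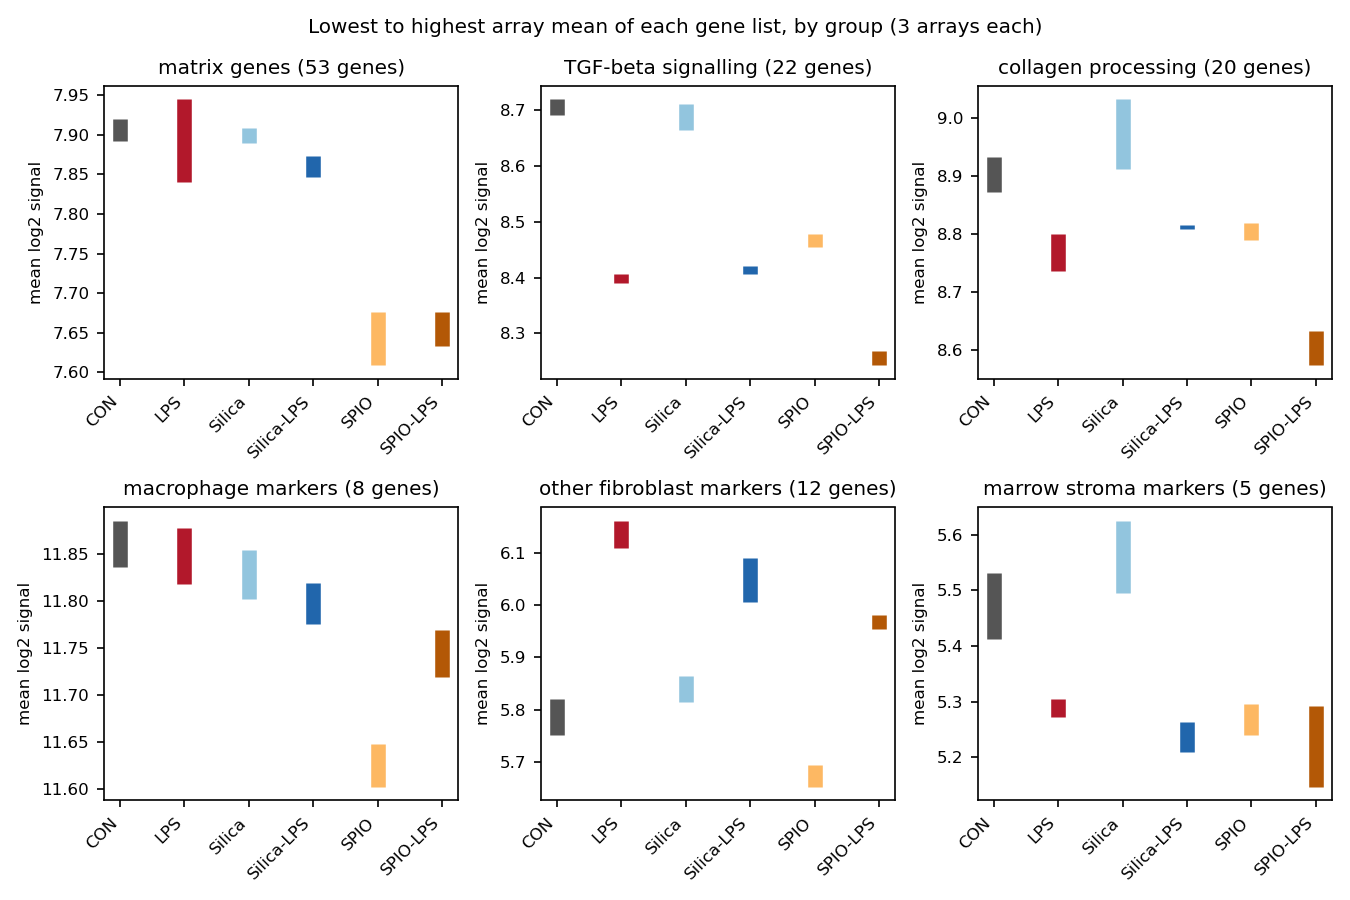
Range of the mean log2 signal per array (vertical axis, scaled per panel; from the lowest to the highest of 3 arrays) in the 6 groups, for the 53 members and 5 other gene lists. SPIO and SPIO-LPS lie below all other groups for the members (7.61 to 7.68 in SPIO, 7.89 to 7.92 in CON). The mean of the 12 other fibroblast markers is higher in each group with LPS than in its counterpart without. This mean includes Pdpn, which had the largest rise with LPS (2.22), and most of the 12 were not called with LPS.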

How the data were processed

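Expression was measured on 18 Affymetrix arrays, and the authors deposited 1 log2 signal per probe set made by RMA, per the submitters' processing notes; which program ran it and how it was set is not given in the sources used here. RMA subtracts background, equalises the arrays' distributions and summarises probes, so a change shared by most genes would not show.

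Of 22690 probe sets, 64 controls, 1555 without a symbol and 691 with several were left out. The brightest probe set stood for each of 12393 genes. Group means were fitted to all 18 arrays with limma 3.58.1 (R 4.3.3) without a block. P-values were adjusted by Benjamini-Hochberg over all genes per comparison and called below 0.05; the fit was tested on simulated data. The 3 arrays per group limit the precision.

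Array values are printed for 6 fixed genes and for the called members with the largest changes whose arrays did not overlap, 6 each way against CON and 4 elsewhere; from other lists up to 4 called genes per comparison were named. Fap, Fmod, Tgfb1, Acan, Smad6 and Skil were named after their values were seen, as were Smad7 and Ski for iron oxide alone. So were the markers without a call (Thy1, Dpt, Tcf21, Tek, Emcn, Adipoq, Ebf3) and members described beyond the rule. The members and all gene lists were chosen with earlier results of these data known. Same-numbered arrays of different groups did not deviate together (correlations of -0.32 to 0.19, median -0.01), so the numbers were not taken as pairs. Promoter sequences are RefSeq's.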

Additional observations from a re-analysis of the deposited data

Results flagged for a closer look

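The effect of iron oxide differed with and without LPS for 2 members, by the interaction term of the limma fit. For Col5a3 the rise with iron oxide was smaller under LPS (-0.48 on the log2 scale). The fall of Ccn2 was larger under LPS (-0.20).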

How the results depend on the processing

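Of the 18 counts of members higher or lower, all stayed within 1.5 times of the values given under cyclic loess scaling and with the replicate block. In the fit on the compared groups alone, 4 moved: to 4 higher for Silica against CON, to 2 higher and 1 lower for Silica-LPS against LPS, and to 1 lower for the interaction with iron oxide. Without the dimmest 33.3% of genes, LPS against CON had 6 higher. With probe sets averaged per gene, SPIO-LPS against LPS had 2 higher and the interaction with iron oxide 1 lower. With a variance trend and robust prior, the interaction with silica had 2 lower and that with iron oxide 2 higher. The cause was not tested, except that fewer arrays or genes enter the first pair of settings by construction.

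With the replicate block, members lower with iron oxide against CON went from 25 to 26, and the interaction with iron oxide had 3 lower; of 101 values for named genes, 98 kept their call. In the fit on the compared groups alone 88 of 101 did and 13 lost it. With the next brightest probe set 58 of 83 did, 20 lost it, 2 gained it and 3 changed sign. Leaving out 1 array at a time gave 0 to 1 higher and 1 to 3 lower for the interaction with iron oxide (1 without CON array 3, LPS array 2 or SPIO array 3), and 0 to 1 higher for SPIO-LPS against Silica-LPS (1 without SPIO-LPS array 3). The ranges were 7 to 8 higher for Silica against CON and 22 to 26 lower for SPIO against CON. The next brightest probe set turned the sign for Col5a3 in Silica-LPS and SPIO-LPS against LPS (-0.021 and -0.068) and for Col19a1 in SPIO-LPS against LPS (-0.17); none of these was called. Signals near either end of the scale limit what can be seen: 15 members lay in the dimmest 33.3% of genes.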
